A study of Mus musculus with 14 samples.

Results

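Glucocorticoids act through a nuclear receptor, the product of Nr3c1, which waits in the cytoplasm with heat-shock proteins and immunophilins, binds the hormone, moves to the nucleus and raises or lowers transcription at glucocorticoid response elements. A small set of genes answers this receptor in many cell types: Fkbp5, Tsc22d3, Per1, Zbtb16, Sgk1, Klf9, Dusp1 and the metallothioneins Mt1 and Mt2. In bone marrow stromal cells dexamethasone, a synthetic glucocorticoid, is a common ingredient of media that drive osteogenic, adipogenic and chondrogenic differentiation. The genes described here are these 9 and Nr3c1 itself, found by their gene name in the count table: 10 of its 23331 genes. All 10 are among the 13896 genes with at least 1 CPM (a count scaled to library size) in at least 3 libraries, the genes tested.

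The study sequenced oligo(dT)-enriched RNA of clonally derived skeletal progenitors, sorted by the fates that each clone could still take. Tripotent (OAC) cells kept the osteogenic, adipogenic and chondrogenic fates, bipotent (OA) cells the osteogenic and adipogenic ones, and unipotent cells only the osteogenic (O) or only the adipogenic (A) one. Each of these 4 groups has 3 libraries, where 1 and 2 each grew from a single clone, of separate mice, and 3 pools further clones from the same mice. A pool of osteo-chondrogenic clones (OC3) and a pool of adipo-chondrogenic clones (AC3) complete the 14 libraries, without replicates. The p-values given below thus rest on the spread of single clones and pools.

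All groups share the same history. The cells are bone marrow stromal cells of adult C57Bl/6 mice that carry the irtTA-GBD*-TAg transgene, taken from femora and tibiae and grown with 10% serum. Dexamethasone at 1e-07 M and doxycycline at 1 µg/ml switched on the transgene's large T-antigen, which immortalises the cells for as long as the drugs are present. Both drugs were then left out for 3 days before RNA was made. As background, the transgene joins its activator to a mutated hormone-binding domain of the glucocorticoid receptor, which is how dexamethasone controls it. Whether reads from it were counted under Nr3c1 was not tested. No library with dexamethasone is among the 14, so these data give the levels that the genes had 3 days after withdrawal, and not the change on withdrawal.

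Total counts were 16888190 to 26076539 per library, and levels are CPM on library sizes scaled by the trimmed mean of M values. Of the marker lists, Pdgfrb, a stromal receptor, was at 297 to 1049 CPM, while the 4 of 7 blood markers in the table summed to 3.10 to 17.2 CPM. Of these, the pan-leukocyte antigen Ptprc did not exceed 0.0379 CPM and the macrophage markers Cd68 (1.70 to 13.8 CPM) and Csf1r (0.53 to 4.96) were present in every library. Lepr, a marker of marrow stroma in adult mice, ranged from 0 to 2.74 CPM. The libraries differed in how counts followed the GC content of genes. Over genes, Spearman's correlation of a library's deviation from the 14-library mean with GC content ran from -0.54 (OAC3) to 0.65 (OA2). O1 was the next on the positive side at 0.51, and AC3 and OC3 were close to OAC3 on the negative side. Every pool was negative, up to -0.20 in A3. Of the single clones, O2 (-0.47) and A2 (-0.13) were negative and the others positive. The part of pooling in this trend was not tested. OA2 and O1 were the pair with the highest correlations. Values without either or both are given beside some results of the glucocorticoid-responsive genes and Nr3c1. For the other gene lists no fold changes or tests without them are given, so differences there can rest on O1 or OA2. In bulk RNA, fewer cells of a type and less RNA per cell cannot be told apart.

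Stretches of promoter show where known response elements lie beside some of these genes. RefSeq windows on build GRCm38.p6, 250 bases before to 50 after an annotated start, were available for 8 of the 10 genes, and Zbtb16 and Nr3c1 are only named. The full palindrome that the receptor binds as a dimer, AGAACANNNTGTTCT, is found on either strand in 3 of 32851 windows, or 0.00913%. Of the 16 windows of these genes Sgk1 has 6, Tsc22d3 3, Per1 2 and the others 1 each. A single one of the 8 genes has the palindrome: Sgk1, in the window chr10:21993640-21993939 on the plus strand. It lies from -189 to -175 (capitals), where the annotated start is position 0.

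Sgk1: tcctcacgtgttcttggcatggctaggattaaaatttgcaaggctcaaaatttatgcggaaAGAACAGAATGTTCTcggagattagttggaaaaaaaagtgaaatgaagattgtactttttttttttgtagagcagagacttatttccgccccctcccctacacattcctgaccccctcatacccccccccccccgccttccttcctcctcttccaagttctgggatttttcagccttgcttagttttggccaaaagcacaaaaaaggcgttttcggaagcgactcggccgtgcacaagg

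The other windows shown carry elements of the pathways that meet glucocorticoids at these genes. Mt2 has 4 and Mt1 has 3 metal response elements, searched as TGCGCNC or TGCACNC on both strands, the site of the zinc-sensing factor Mtf1. At least 1 match is found in 25.7% of windows, at least 3 in 1.97% and at least 4 in 0.517%. The Dusp1 window has a cyclic AMP response element, TGACGTCA, from -143 to -136, as do 1.79% of windows. The windows are chr8:94172368-94172667 (Mt2) and chr8:94178839-94179138 (Mt1), both on the plus strand, and chr17:26508423-26508722 (Dusp1) on the minus strand, each written 5′ to 3′ along the gene with the named elements in capitals. A match is a description of letters and not a measured binding site.

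Mt2: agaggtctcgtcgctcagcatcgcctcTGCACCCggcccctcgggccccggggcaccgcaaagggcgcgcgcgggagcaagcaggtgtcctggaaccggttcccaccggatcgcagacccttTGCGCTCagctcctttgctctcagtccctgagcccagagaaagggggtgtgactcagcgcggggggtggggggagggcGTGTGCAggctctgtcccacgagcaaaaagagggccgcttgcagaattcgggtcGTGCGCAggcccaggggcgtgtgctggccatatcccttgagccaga
Mt1: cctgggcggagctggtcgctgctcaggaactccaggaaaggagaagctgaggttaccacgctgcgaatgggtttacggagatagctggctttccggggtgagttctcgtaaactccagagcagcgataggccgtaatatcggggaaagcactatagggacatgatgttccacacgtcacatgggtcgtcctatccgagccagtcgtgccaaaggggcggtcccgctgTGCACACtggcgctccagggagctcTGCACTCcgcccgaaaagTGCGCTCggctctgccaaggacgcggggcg
Dusp1: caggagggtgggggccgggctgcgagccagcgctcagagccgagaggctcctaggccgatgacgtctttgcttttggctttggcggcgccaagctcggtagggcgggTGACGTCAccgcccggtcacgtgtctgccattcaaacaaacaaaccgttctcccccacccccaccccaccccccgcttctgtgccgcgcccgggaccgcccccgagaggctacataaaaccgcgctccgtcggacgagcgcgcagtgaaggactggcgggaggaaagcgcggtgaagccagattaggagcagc

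The looser receptor core GNACANNNTGTNC, present in 0.475% of windows, lies from -94 to -82 in the Mt1 window and overlaps the palindrome of Sgk1. The half-site AGAACA alone, in 19.0% of windows, was also found in a Tsc22d3 window. The E-box CACGTG, the site of clock factors and in 7.15% of windows, was found in windows of Per1, Fkbp5, Dusp1 and Sgk1.

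At 3 days without dexamethasone every one of the 10 genes had counts in every library, from 51 reads for Zbtb16 to 4851 for Mt1. On a scale that allows genes to be compared, median CPM per kilobase of exonic length, the metallothioneins were highest, Mt1 at 206 and Mt2 at 40.7. Dusp1 followed at 16.6, Fkbp5 at 12.9, Sgk1 at 11.5, Nr3c1 at 10.7, Tsc22d3 at 8.88, Klf9 at 8.39 and Per1 at 5.65, and Zbtb16 was lowest at 1.17. The spread over the 14 libraries, as the ratio of the highest to the lowest CPM, ran from 2.58 for Tsc22d3 to 15.7 for Klf9. Its median over the 10772 genes that averaged at least 5 CPM was 3.01.

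**Figure D1:**
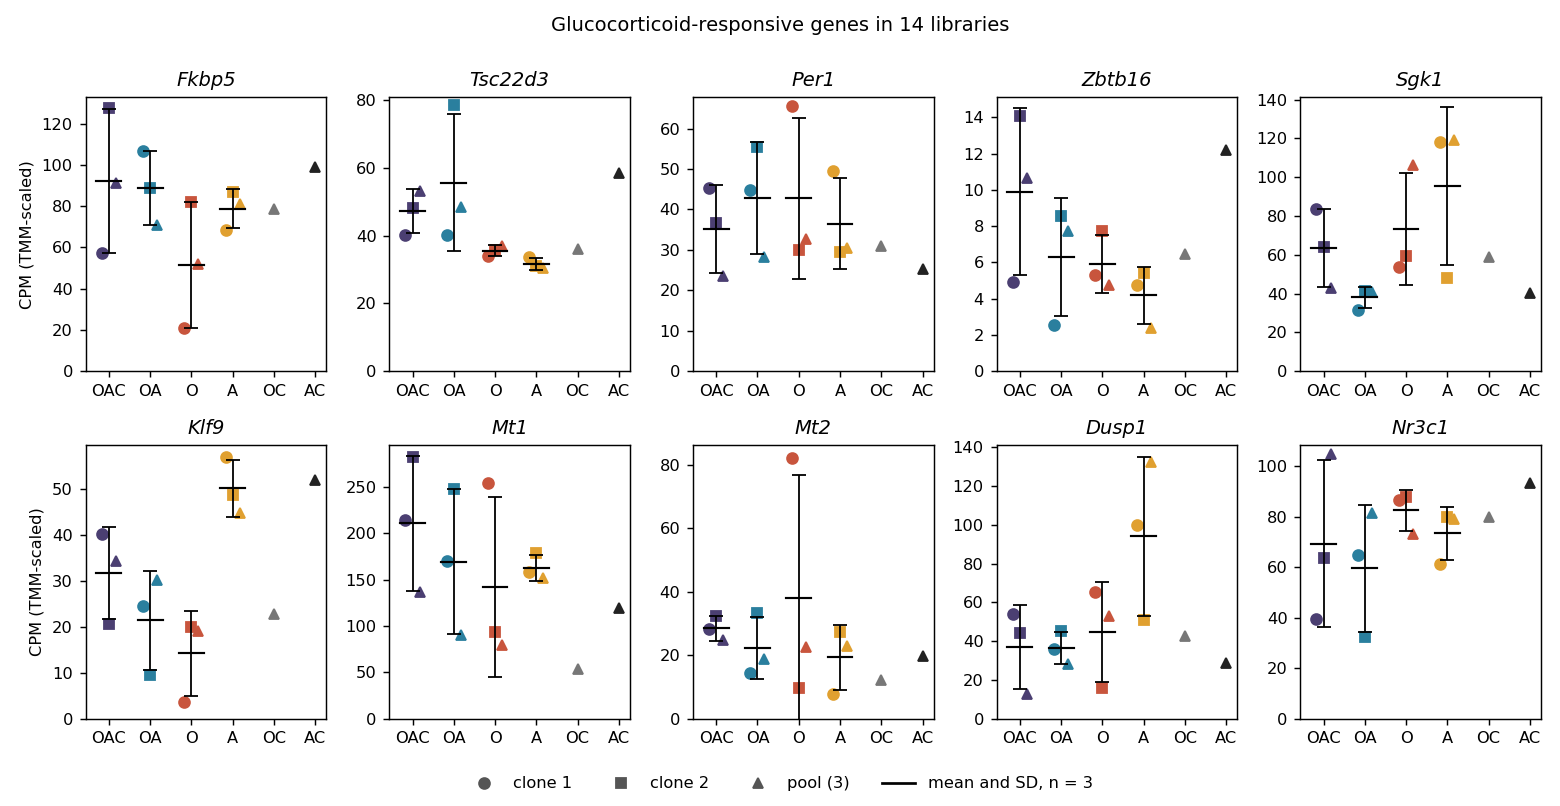
CPM of each of the 10 genes (vertical axes, 1 scale per gene) in the 14 libraries, by group from OAC to A and then the single pools OC3 and AC3. Points are libraries, with the mean and SD of the 3 libraries in each replicated group. For Klf9 the 3 A libraries (44.8 to 57.1 CPM) and AC3 (52.0) sit above the other 10, and for Tsc22d3 the 6 OAC and OA libraries (40.1 to 78.5) sit above the 6 O and A libraries (30.4 to 36.9). How large a share of all genes separates libraries in such ways was not counted.

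None of the 10 genes passed the false discovery rate (FDR) of 0.05 in the quasi-likelihood test of edgeR, in any of the 8 comparisons made among OAC, OA, O and A, and none passed DESeq2's adjusted p of 0.05. Over all genes edgeR called almost as little. It called 0% of the 13896 genes in the test of any difference over the 4 groups, in OA vs O, OAC vs OA, OAC vs O and multipotent (OAC and OA) vs unipotent (O and A), and 0.0072%, which is 1 gene, in each of O vs A, OA vs A and OAC vs A. DESeq2 called 2.1% for any difference, 3.03% in O vs A, 0.309% in OA vs O, 0.937% in OA vs A, 0% in OAC vs OA, 0.728% in OAC vs O, 0.411% in OAC vs A and 0.223% in multipotent vs unipotent. The 0 of 10 members are thus read against backgrounds of at most 1 gene with edgeR and 3.03% with DESeq2.

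Unadjusted p-values under 0.05 were reached by 2 of the 10 genes for any difference, Tsc22d3 and Sgk1, against 5.97% of all genes. They were reached by 1 member in O vs A (9.89% of all genes), 2 in OA vs O (5.43%), 3 in OA vs A (5.27%), 0 in OAC vs OA (1.17%), 0 in OAC vs O (6.02%), 2 in OAC vs A (3.58%) and 2 in multipotent vs unipotent (4.86%). The genes concerned were Tsc22d3 and Sgk1 in most of these, with Klf9 in O vs A, Dusp1 in OA vs A and Zbtb16 in OAC vs A. Because the comparisons share libraries, these counts are not independent of each other. The median log2 fold change of the 10 genes in O vs A was -0.01, against 0.03 over all genes tested, and 5 of the 10 had the higher mean in O. In the other 6 pairwise and pooled comparisons the members' median lay between -0.03 in multipotent vs unipotent and 0.27 in OAC vs OA, where the medians over all genes were -0.04 and 0.00.

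**Figure D2:**
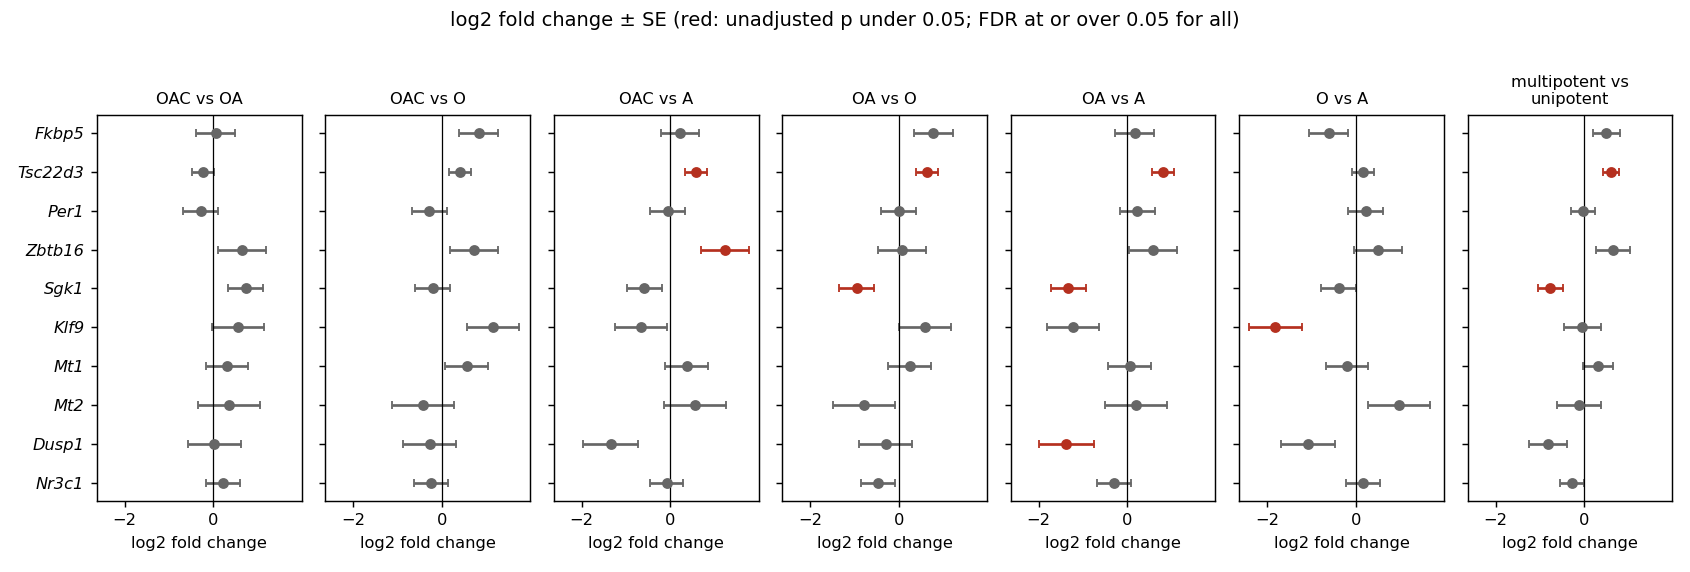
Log2 fold changes with SE (horizontal axes) of the 10 genes in 7 comparisons, 1 panel each, with the group named first on top of the fold. Red points have an unadjusted edgeR p under 0.05, and none has an FDR under 0.05. The longest departures from 0 are Klf9 in O vs A (-1.82 ± 0.60), Dusp1 in OA vs A (-1.37 ± 0.61) and in OAC vs A (-1.35 ± 0.61), and Sgk1 in OA vs A (-1.33 ± 0.40).

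Nr3c1 (ENSMUSG00000024431) encodes the receptor. Its level was 39.3, 63.8 and 105 CPM in OAC, 64.9, 32.2 and 81.4 in OA, 86.5, 87.7 and 73.3 in O, and 61.2, 79.95 and 79.0 in A, with 79.8 in OC3 and 93.3 in AC3. The groups overlapped, and the spread within OAC (69.3 ± 33.1, SD, n = 3) and OA (59.5 ± 25.1) was wider than the distance between any pair of group means. In O vs A the log2 fold change was 0.17 ± 0.38 (SE; FDR 1.00, edgeR). The coefficient of variation over the 14 libraries was 27.0%, the lowest of the 10 genes, against a median of 29.7% over genes of at least 5 CPM. Nr3c1 is also the member with the lowest GC content, 42.2%, and it was lowest in OA2, the library whose counts leaned most to GC-rich genes. With each library's trend with GC removed, OA2 stood at 105 CPM, O1 was highest at 182 and OAC1 was lowest at 45.5.

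Fkbp5 (ENSMUSG00000024222) encodes an immunophilin of the receptor complex that lowers the receptor's affinity for hormone, so that its induction closes a negative feedback loop. It stood at 57.5, 128 and 91.5 CPM in OAC, 107, 88.7 and 70.8 in OA, 20.8, 82.1 and 52.0 in O, and 68.5, 86.9 and 81.1 in A, with 78.7 in OC3 and 99.0 in AC3. O had the lowest mean, 51.6 ± 30.6 CPM (SD, n = 3), and it overlapped with the other groups. In O vs A the log2 fold change was -0.61 ± 0.44 (edgeR FDR 0.779). Much of this came from O1: without it the log2 fold change was -0.23, and without O1 and OA2 the highest of the remaining libraries was 2.54 times the lowest, against 6.13 times over all 14.

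Tsc22d3 (ENSMUSG00000031431), or GILZ, is a leucine zipper protein that carries part of the anti-inflammatory action of glucocorticoids and in mouse stromal cells is known to hold back adipogenesis through Pparg. Its levels were 40.3, 48.3 and 53.2 CPM in OAC, 40.1, 78.5 and 48.4 in OA, 33.9, 35.9 and 36.9 in O, and 33.6, 31.1 and 30.4 in A, with 36.1 in OC3 and 58.7 in AC3. All 6 libraries of the multipotent groups lay above all 6 of the unipotent groups, and OAC and OA overlapped. The O libraries lay above the A libraries by little, with the lowest O at 33.9 and the highest A at 33.6. The share of all genes whose groups do not overlap was not counted. Lack of overlap is thus only described, here and for Klf9, Sgk1, Dusp1 and Hsd11b1 below. Of the single pools, AC3 lay within the OA range and OC3 within the O range, although both pools had kept 2 fates.

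The log2 fold change of Tsc22d3 in multipotent vs unipotent was 0.61 ± 0.17, on means of 51.5 and 33.6 CPM (edgeR FDR 0.998; DESeq2 adjusted p 0.155). It was 0.81 ± 0.25 in OA vs A (edgeR FDR 0.676), 0.65 ± 0.25 in OA vs O (FDR 0.872) and 0.58 ± 0.25 in OAC vs A (FDR 1.00). Between O and A it was 0.17 ± 0.25 (edgeR FDR 0.986). OA2 was the highest library, and without it the fold change was 0.45 in multipotent vs unipotent, 0.47 in OA vs A and 0.28 in OA vs O. The difference is therefore smaller without OA2 and keeps its direction. Among single clones only, without the pools, it was 0.64 in multipotent vs unipotent, and the unadjusted p no longer fell under 0.05.

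Per1 (ENSMUSG00000020893), a repressor of the circadian clock that glucocorticoids induce directly, was at 45.2, 36.7 and 23.5 CPM in OAC, 44.8, 55.5 and 28.2 in OA, 65.6, 29.9 and 32.8 in O, and 49.5, 29.5 and 30.4 in A, with 31.0 in OC3 and 25.2 in AC3. The group ranges overlapped throughout. The log2 fold change in O vs A was 0.23 ± 0.40 (edgeR FDR 0.997), and without O1 and OA2 it was -0.24. Per1 has the highest GC content of the 10 genes, 59.4%. It was highest in O1 and OA2 and lowest in OAC3 and AC3, libraries near the opposite ends of the GC trend, and with that trend removed the highest library was 1.73 times the lowest, against 2.79 times as measured.

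Zbtb16 (ENSMUSG00000066687) encodes PLZF, a zinc-finger repressor that dexamethasone induces strongly in human osteogenic cells. It was the least abundant member, at 4.94, 14.1 and 10.7 CPM in OAC, 2.56, 8.58 and 7.71 in OA, 5.28, 7.75 and 4.73 in O, and 4.73, 5.43 and 2.40 in A, with 6.48 in OC3 and 12.2 in AC3. The 3 libraries above 10 CPM, OAC2, OAC3 and AC3, all came from cells with a chondrogenic fate, while OAC1 and OC3, which share that fate, were below 7. In OAC vs A the log2 fold change was 1.24 ± 0.55 (edgeR FDR 1.00), with OAC1 inside the A range, and without OAC2 it was 0.90. The O vs A value was 0.50 ± 0.54 (edgeR FDR 0.921).

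Klf9 (ENSMUSG00000033863), a Krüppel-like transcription factor induced by glucocorticoids and thyroid hormone that promotes adipogenesis in mouse 3T3-L1 cells, had the highest ratio of highest to lowest library, while Mt2 (71.4%) and Dusp1 (63.2%) had higher coefficients of variation than its 53.1%. Klf9 was at 40.2, 20.6 and 34.5 CPM in OAC, 24.6, 9.49 and 30.2 in OA, 3.63, 19.97 and 19.1 in O, and 57.1, 48.8 and 44.8 in A, with 22.7 in OC3 and 52.0 in AC3. The 4 libraries of cells without the osteogenic fate, the 3 of A and AC3, were the 4 highest, and OAC1 came next. A lay above OAC, OA and O without overlap, and OAC lay above O, while OA overlapped with both.

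The log2 fold change of Klf9 in O vs A was -1.82 ± 0.60, on means of 14.2 ± 9.19 and 50.2 ± 6.26 CPM (SD, n = 3 each; edgeR FDR 0.352; DESeq2 adjusted p 0.0682). Without O1, the lowest library, it was -1.36, and the highest library was 3.06 times the lowest once both O1 and OA2 were left out, against 15.7 times over all 14. In OAC vs A and OA vs A the edgeR FDRs were 1.00 and 0.975. Summed levels of the adipocyte markers Pparg, Cebpa, Fabp4, Adipoq, Plin1 and Lpl (6 of 6 in the table) moved with Klf9 between O and A, at 61.9 to 113 CPM in O and 236 to 411 in A. They were 120.3 to 461 in OAC, 139 to 173 in OA, 45.6 in OC3 and 859 in AC3, with Adipoq and Plin1 at 0 in at least 1 library. OAC2 did not follow this: its sum of 461 was above every A library, while its Klf9 was at 20.6 CPM. Lpl alone ranged from 0.24 to 693 CPM, so it can make up much of a sum. Summed levels of the 6 osteoblast markers were 34690 to 55830 CPM in O and 5117 to 11350 in A, but nearly all of that is the collagen gene Col1a1, which the stromal list shares. The other 5 summed to 263, 4140 and 862 CPM in O and 234, 156 and 105 in A, with Ibsp at 0 in at least 1 library. The part of either in the Klf9 values was not tested.

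Sgk1 (ENSMUSG00000019970) encodes a kinase related to Akt that glucocorticoids and mineralocorticoids induce and that regulates ion channels and cell survival. It stood at 83.4, 64.1 and 43.1 CPM in OAC, 31.7, 41.5 and 40.8 in OA, 53.9, 59.4 and 106 in O, and 118, 48.3 and 119 in A, with 58.9 in OC3 and 40.5 in AC3. All 3 OA libraries lay below all those of OAC, O and A, while OAC, O and A overlapped. OA is the group with the narrowest spread, 38.0 ± 5.49 CPM (SD, n = 3).

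The log2 fold change of Sgk1 was -1.33 ± 0.40 in OA vs A (edgeR FDR 0.676; DESeq2 adjusted p 0.128) and -0.95 ± 0.40 in OA vs O (edgeR FDR 0.902). Without O3, the highest O library, OA vs O was -0.58. In multipotent vs unipotent it was -0.77 ± 0.28, on overlapping groups with means of 50.8 and 84.3 CPM (edgeR FDR 0.998), and -0.38 among single clones only. The O vs A value was -0.38 ± 0.39 (edgeR FDR 0.910).

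Dusp1 (ENSMUSG00000024190), a phosphatase that switches off MAP kinases and is both a glucocorticoid target and an immediate early gene, was at 54.2, 44.4 and 12.6 CPM in OAC, 35.8, 45.2 and 28.3 in OA, 65.3, 15.8 and 53.2 in O, and 99.9, 50.7 and 132 in A, with 42.4 in OC3 and 28.6 in AC3. The OA libraries lay below the A libraries, and the other groups overlapped with each other. The log2 fold change was -1.37 ± 0.61 in OA vs A (edgeR FDR 0.946), and -0.83 among single clones only. The O vs A value was -1.08 ± 0.61 (edgeR FDR 0.646). In the mouse annotation Dusp1 shares exonic sequence with Ergic1 on the opposite strand, and the strand setting of the counting is not given in the sources used here, so reads of the pair may be mixed.

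The summed level of 12 other immediate early genes, all in the table and tested, moved in part with Dusp1. It was 1363, 1360 and 427 CPM in OAC, 1166, 1384 and 699 in OA, 733, 696 and 803 in O, and 1790, 1194 and 1520 in A, with 905 in OC3 and 427 in AC3. A1 and A3 were the 2 highest libraries and OAC3 the lowest on both measures. None of the 12 passed in any comparison, and 0 had an unadjusted edgeR p under 0.05 for any difference, while 5 of 12 had one in O vs A, all lower in O, where 9.89% of all genes did. In multipotent vs unipotent 1 of 12 had one, Atf3, a stress-induced transcription factor (log2 fold change -0.71, edgeR FDR 0.998), where 4.86% of all genes did. Egr1, a growth factor-induced zinc-finger activator, averaged 380 ± 282 CPM in OAC, 393 ± 197 in OA, 142 ± 45.8 in O and 583 ± 95.0 in A (SD, n = 3 each; edgeR FDR 0.921 over the 4 groups). The part of this gene class in the Dusp1 values was not tested.

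Mt1 (ENSMUSG00000031765) and Mt2 (ENSMUSG00000031762) encode small cysteine-rich proteins that bind zinc and copper and answer both metals and glucocorticoids. Their sequences are close, so reads may be split between them. Mt1 was at 214, 282 and 136 CPM in OAC, 170.4, 248 and 90.6 in OA, 254, 93.6 and 79.4 in O, and 159, 179 and 152 in A, with 53.1 in OC3 and 119 in AC3. The O range enclosed that of A only through O1, while O2 and O3 lay below every A library. The log2 fold change in O vs A was -0.20 ± 0.48 (edgeR FDR 1.00). Without O1 it was -0.91, and without O1 and OA2 it was -0.93.

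Mt2 was at 28.3, 32.3 and 24.7 CPM in OAC, 14.5, 33.3 and 18.8 in OA, 82.3, 9.78 and 22.4 in O, and 7.85, 27.3 and 22.9 in A, with 12.3 in OC3 and 19.6 in AC3. O1 alone exceeded 34 CPM. In O vs A the log2 fold change was 0.98 ± 0.70 (edgeR FDR 0.779), and without O1 it was -0.26, so its sign rests on that library. Hmox1, the heme-degrading stress enzyme of the metal response list, averaged 174 ± 11.9 CPM in OAC, 148 ± 47.8 in OA, 115 ± 27.9 in O and 200.3 ± 6.32 in A (SD, n = 3 each; edgeR FDR 0.831 over the 4 groups). It was the 1 of the 4 tested genes of that list with an unadjusted edgeR p under 0.05 for any difference, against 5.97% of all genes. Slc30a1, a zinc exporter and Mtf1 target, had an edgeR FDR of 1.00, as did Mtf1 itself and the zinc importer Slc39a10.

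If glucocorticoid-responsive genes vary together between libraries, their levels should correlate. Over the 14 libraries, 20 of the 45 pairs of the 10 genes had a positive Pearson r of log2 CPM and 25 a negative one, with a median of -0.07 and a range of -0.63 to 0.66. None of the 45 passed a Benjamini-Hochberg adjusted permutation p of 0.05 with 100000 resamples (lowest 0.152 for Pearson and 0.115 for Spearman). An unadjusted Pearson permutation p under 0.05 was reached by 10 pairs. The share of such pairs among all genes tested was not computed, so the 10 are not read as particular to these genes. Nr3c1 was positively correlated with 2 of the other 9 genes and negatively with 7, between -0.63 and 0.14.

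**Figure D3:**
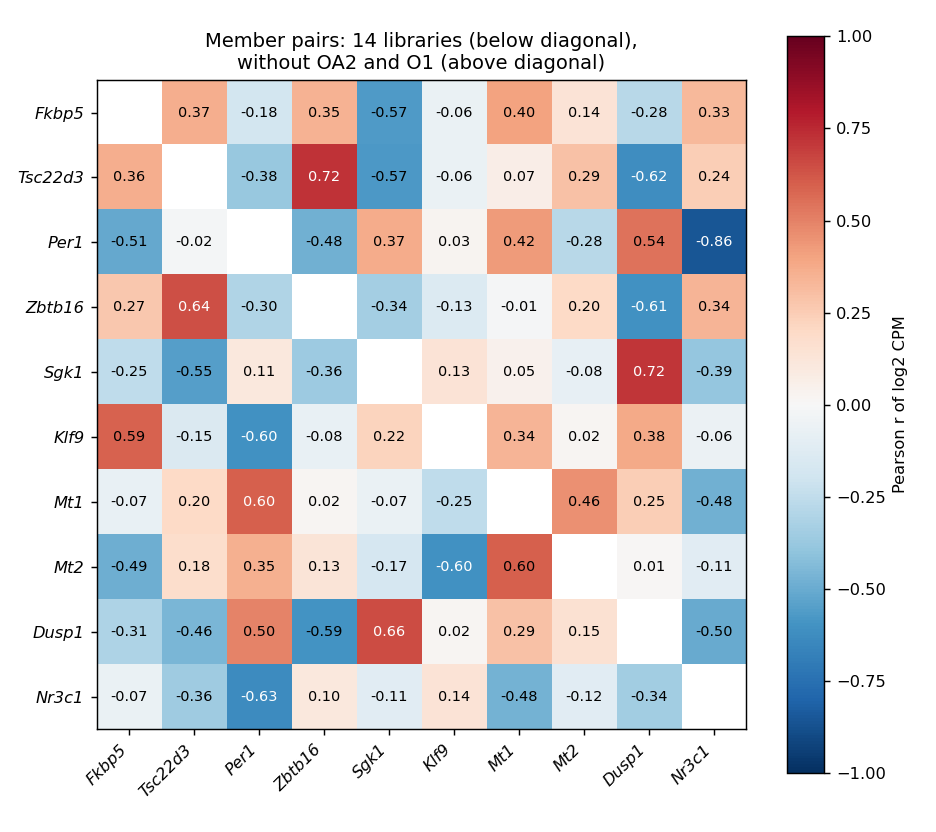
Pearson r of log2 CPM for the 45 pairs of genes, over all 14 libraries below the diagonal and over the 12 libraries other than OA2 and O1 above it. Colours run from blue (r of -1) to red (r of 1). Sgk1 with Dusp1 (0.66 over 14 libraries, 0.72 over 12) and Tsc22d3 with Zbtb16 (0.64 and 0.72) are positive in both, while Per1 with Klf9 has -0.60 over 14 and 0.03 over 12.

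The pairs with the strongest positive correlation were Sgk1 with Dusp1 and Tsc22d3 with Zbtb16. Sgk1 and Dusp1 had r = 0.66 (permutation p = 0.0106, adjusted 0.152) and rho = 0.67 (permutation p = 0.0110), and r was 0.37 without A1 and A3, the libraries farthest from the Sgk1 median, so the relation rests in part on them. Tsc22d3 and Zbtb16 had r = 0.64 (permutation p = 0.0123, adjusted 0.152) and rho = 0.66 (permutation p = 0.0132), with r = 0.65 without OA2 and AC3. Mt1 and Mt2 had r = 0.60 (permutation p = 0.0240) and rho = 0.72 (permutation p = 0.00513), with r = 0.64 without OC3 and O3 and 0.46 without OA2 and O1. Negative pairs included Zbtb16 with Dusp1 (r = -0.59, permutation p = 0.0248; rho = -0.64, permutation p = 0.0162) and Tsc22d3 with Sgk1 (r = -0.55, permutation p = 0.0412; rho = -0.60, permutation p = 0.0277).

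With the GC trend removed, r was 0.48 for Tsc22d3 with Zbtb16, 0.44 for Mt1 with Mt2 and -0.50 for Tsc22d3 with Sgk1. It was farther from 0 for Sgk1 with Dusp1 (0.73) and Zbtb16 with Dusp1 (-0.63). The remaining pairs under 0.05 also came nearer to 0, or changed sign, with 2 libraries left out or the GC trend removed. Fkbp5 with Klf9 had r = 0.59 (permutation p = 0.0491) but rho = 0.15, and r = -0.31 without O1 and O3. Per1 with Klf9 (r = -0.60) and Klf9 with Mt2 (r = -0.60) came to 0.03 and 0.02 without OA2 and O1. Per1 with Mt1 had r = 0.60 (permutation p = 0.0233), and 0.21 with the GC trend of each library removed.

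Per1 against the receptor gene gave the lowest r, -0.63 (permutation p = 0.0151, adjusted 0.152; rho = -0.72, permutation p = 0.00426, adjusted 0.115). Without O1 and OA2, the libraries farthest from the Per1 median, r was -0.86 and the pair passed the adjusted threshold, as it did without O1 alone (r = -0.89, adjusted permutation p = 0.00045). With the GC trend of each library removed it was 0.29 over 14 libraries, and -0.64 when O1 and OA2 were left out as well, an alternative chosen after seeing the data. Per1 and Nr3c1 hold the highest and the lowest GC content of the 10 genes. The part of GC content in their relation was not tested beyond these values.

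**Figure D4:**
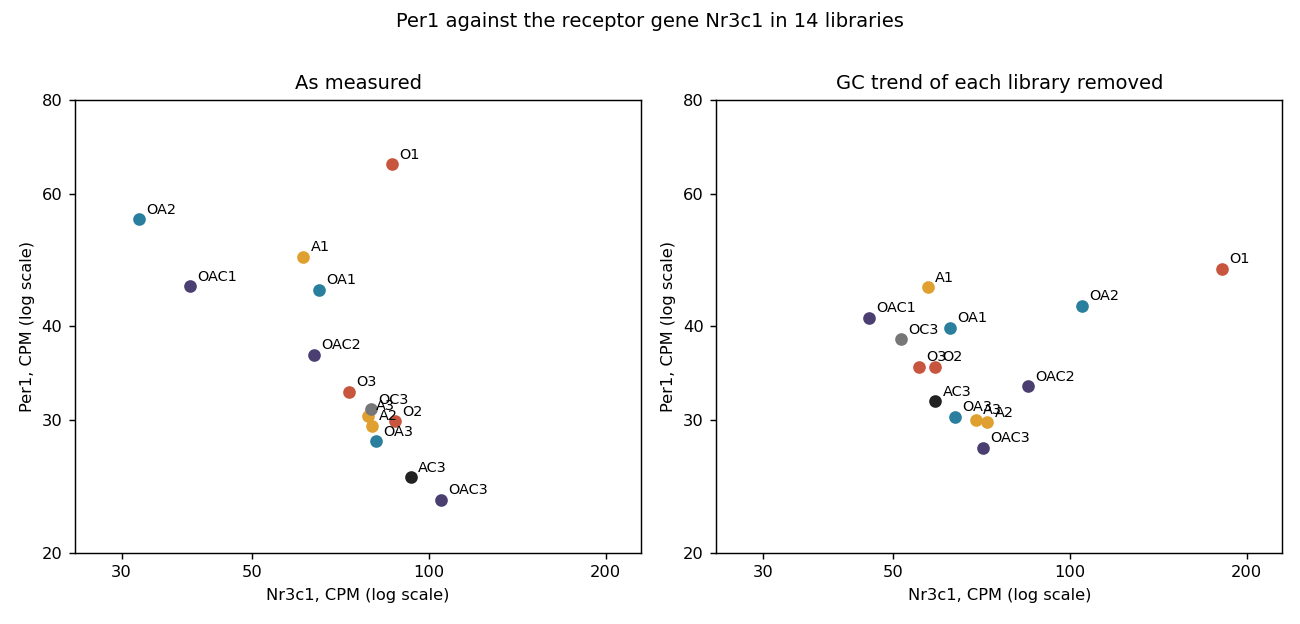
Per1 (vertical axes) against Nr3c1 (horizontal axes), CPM on log scales, in the 14 libraries coloured by group, as measured on the left and with the GC trend of each library removed on the right. On the left r of log2 CPM is -0.63. On the right it is 0.29, with O1 moved to the far right at 182 CPM of Nr3c1.

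The gene most like each member in pattern, among 9741 named genes of at least 5 CPM on average, is given by its Pearson r over the same 14 libraries, with r without OA2 and O1 after it. Sgk1 was nearest to Dusp6 (0.83 and 0.89), a phosphatase of ERK kinases with 27.4 CPM in A3 and 6.87 in OAC3. Dusp1 was nearest to Arc (0.89 and 0.91), an immediate early gene with 73.6 CPM in A1 and 6.04 in OAC3. Tsc22d3 was nearest to Dhcr7 (0.90 and 0.84), which makes cholesterol, and Zbtb16 to Ppp1r3b (0.89 and 0.90), a glycogen-targeting phosphatase subunit. Per1 was nearest to Chpf2 (0.95 and 0.90), Klf9 to Sept11 (0.95 and 0.89), Mt1 to Trappc2l (0.97 and 0.98), Mt2 to Cog2 (0.90 and 0.80), Nr3c1 to Ccdc52 (0.88 and 0.77) and Fkbp5 to Parp1 (0.91 and 0.69). These values come from a search over many genes, and the libraries share depth and GC trends.

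Other genes of the pathway were followed in 8 lists of 101 genes, of which 99 are in the table. The receptor complex list holds chaperones and immunophilins of the unliganded receptor and also Nr3c2, the gene of the mineralocorticoid receptor. Of its 10 genes, 9 were tested. None passed in edgeR or DESeq2, and 0 had an unadjusted edgeR p under 0.05 in any comparison. Fkbp4, the immunophilin that opposes Fkbp5 and helps the receptor to the nucleus, had the lowest p of the list for any difference (edgeR FDR 1.00), at 174 ± 31.8 CPM in OAC, 198 ± 25.5 in OA, 154 ± 14.2 in O and 153 ± 13.6 in A (SD, n = 3 each). The co-chaperones Stip1, Ppp5c and Ptges3 followed, each with an edgeR FDR of 1.00. Of 10 coregulators, all tested, 0 passed in either tool, and Ncoa3, Smarca4 and Nrip1 each had an edgeR FDR of 1.00 for any difference.

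The enzymes that set hormone supply inside the cell are Hsd11b1, which regenerates active glucocorticoid, its partner H6pd, which supplies NADPH, and Hsd11b2, which inactivates the hormone and was below the filter. Hsd11b1 was low, at 0.53, 0.50 and 1.11 CPM in OAC, 0.40, 4.02 and 0.49 in OA, 0.13, 0.24 and 0.23 in O, and 1.15, 1.09 and 2.52 in A, with 0.19 in OC3 and 9.25 in AC3. All 3 O libraries lay below all 3 A libraries and those of OAC and OA (edgeR FDR 0.798 over the 4 groups). All 3 O values were under the 1 CPM of the filter, so this separation rests on few reads. H6pd averaged 113 ± 30.7 CPM in OAC, 85.8 ± 32.7 in OA, 74.6 ± 18.6 in O and 127 ± 21.5 in A (SD, n = 3 each; edgeR FDR 0.949 over the 4 groups), with 144 in AC3. Both had an unadjusted edgeR p under 0.05 in O vs A, where 9.89% of all genes did, and neither passed. The adipocyte marker sums were also high in AC3 and A, but other libraries did not follow them. OAC1 had 143 CPM of H6pd with a marker sum of 120.3 CPM. Hsd11b1 was at 4.02 CPM in OA2 with a sum of 173, and at 0.50 in OAC2 with a sum of 461. The part of adipocyte markers in these values was not tested.

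Of 32 other targets that glucocorticoids are known to induce, 31 are in the table and 26 were tested. For any difference 0 passed in edgeR and 4 had an unadjusted p under 0.05, where 5.97% of all genes did, while 2 passed in DESeq2, Angptl4 and Crispld2, where 2.1% of all genes did. Angptl4, a secreted inhibitor of lipoprotein lipase that is also a target of PPAR factors, was at 6.22, 5.03 and 1.74 CPM in OAC, 3.71, 1.45 and 2.24 in OA, 1.97, 0.45 and 0.79 in O, and 30.8, 3.93 and 15.6 in A, with 10.4 in AC3 (edgeR FDR 0.601; DESeq2 adjusted p 0.00192). Crispld2, a secreted protein that glucocorticoids induce in human airway smooth muscle, had a DESeq2 adjusted p of 0.0298, with 125 CPM in O1, 45.7 in OA2 and 37.0 in OC3 against at most 17.3 in the others. Errfi1, a feedback inhibitor of the EGF receptor, averaged 130.4 ± 76.3 CPM in OAC, 87.4 ± 36.4 in OA, 36.5 ± 21.4 in O and 163 ± 45.8 in A (SD, n = 3 each; edgeR FDR 0.779). Cebpd, a transcription factor of early adipogenesis, was at 59.1 CPM in O1 and at most 11.9 elsewhere (edgeR FDR 0.826). In O vs A the list's median log2 fold change was -0.22, against 0.03 over all genes tested, with 8 of 26 under an unadjusted edgeR p of 0.05 (3 higher and 5 lower in O), where 9.89% of all genes were. DESeq2 called 4 of 26 there, against 3.03% of all genes: Crispld2 was higher in O, and Angptl4, Errfi1 and Gpx3, a secreted glutathione peroxidase with means of 1.24 CPM in O and 210.5 in A, were lower. In OAC vs O 7 of 26 were under 0.05 unadjusted (5 higher and 2 lower in OAC), against 6.02% of all genes, and DESeq2 called Crispld2, lower in OAC, against 0.728%. In the other comparisons 0 to 2 of the 26 were under 0.05, against 1.17% to 5.43% of all genes, and DESeq2 called 0. The Crispld2 calls were not repeated without O1, its highest library. Crispld2 was at 6.01 CPM in O2 and 17.3 in O3, and at most 3.17 in A.

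Of 15 targets that glucocorticoids are known to repress, 14 are in the table and 9 were tested. For any difference 0 passed in edgeR and 6 of 9 had an unadjusted p under 0.05, against 5.97% of all genes, while DESeq2 called 2 of them, against 2.1%: the chemokine Ccl7 and the matrix metalloproteinase Mmp3. Ccl7 was at 27.7, 10.00 and 7.66 CPM in OAC, 19.1, 6.70 and 6.73 in OA, 19.7, 3.04 and 22.4 in O, and 63.0, 133 and 38.6 in A (edgeR FDR 0.681; DESeq2 adjusted p 0.0214). Mmp3 reached 37.6 CPM in O1 and at most 3.49 in the other libraries (edgeR FDR 0.695; DESeq2 adjusted p 0.0201). Cxcl1, a neutrophil chemokine, was likewise at 440.4 CPM in O1 and at most 37.1 elsewhere (edgeR FDR 0.831). Bglap, the bone matrix protein osteocalcin, averaged 2.96 ± 2.74 CPM in OAC, 2.61 ± 2.52 in OA, 6.65 ± 7.00 in O and 0.28 ± 0.15 in A (SD, n = 3 each; edgeR FDR 0.801). The median log2 fold change of the list was 0.71 in O vs A, against 0.03 over all genes tested, and -1.21 in multipotent vs unipotent, against -0.04. In O vs A 4 of 9 had an unadjusted edgeR p under 0.05 (2 higher and 2 lower in O, against 9.89% of all genes). DESeq2 called Mmp3 and Bglap there, both higher in O, against 3.03% of all genes. The Mmp3 call was not repeated without O1. Mmp3 was at 1.10 CPM in O2 and 2.14 in O3, and at most 0.42 in A. In multipotent vs unipotent 3 of 9 had an unadjusted edgeR p under 0.05, all lower in the multipotent groups, against 4.86%, and DESeq2 called 0. In OA vs A DESeq2 called Ccl7, lower in OA, against 0.937% of all genes.

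Of 14 other clock genes, 13 were tested, 0 passed for any difference in either tool and 2 had an unadjusted edgeR p under 0.05, against 5.97% of all genes. Npas2, a partner of Bmal1, averaged 3.02 ± 1.21 CPM in OAC, 3.69 ± 0.95 in OA, 3.71 ± 1.63 in O and 1.28 ± 0.28 in A (SD, n = 3 each; edgeR FDR 0.798). It was the 1 clock gene that DESeq2 called in O vs A, higher in O (adjusted p 0.0346), where DESeq2 called 3.03% of all genes. Bhlhe41, a clock repressor, averaged 12.1 ± 1.505 CPM in OAC, 10.9 ± 2.67 in OA, 5.84 ± 1.53 in O and 14.1 ± 6.77 in A (edgeR FDR 0.834). Dbp, an output gene of the clock, and Bhlhe40, a clock repressor, had edgeR FDRs of 0.900 and 0.962.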

How the data were processed

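RNA abundance was measured in 14 libraries of clonally derived mouse bone marrow stromal cells. Per the labels' protocols, oligo(dT)-enriched RNA was made into strand-specific libraries. The deposited table holds the authors' whole-number read counts per gene, with an exonic length for each gene. CASAVA 1.8.0, bedtools 2.11 and build mm9 are named, per the submitters' processing notes. The aligner, read filters and strand setting were not given in the sources used here, so overlapping genes, antisense genes and close paralogs have uncertain counts, and 196 genes share a symbol.

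Libraries were grouped by the potential in their labels. Genes had to reach 1 CPM in 3 or more libraries, which 13896 did. Their deposited counts entered edgeR 4.0.16 (R 4.3.3), with TMM factors, 6 group means and its quasi-likelihood F test. Benjamini-Hochberg adjustment ran over all of them (FDR, threshold 0.05). SE was derived from the size of the log2 fold change over the root of F. DESeq2 1.42.0 was the second tool and gave no adjusted p for 21 genes, or 291 in OA vs O. Scripts were checked on simulated counts.

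CPM per kilobase divides CPM by the exonic length in the table. Correlations used log2 CPM with a prior count of 2 and numpy 2.4.6. GC content came from a later mouse annotation for 96.5% of genes tested, and removing the GC trend subtracts each library's smoothed deviation against it. Promoter sequences are RefSeq's on GRCm38.p6, used for letters and not joined to mm9 coordinates.

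All 10 genes are named with every value. Fold changes are given for all in O vs A and elsewhere where the unadjusted edgeR p was under 0.05, and up to 4 genes per pathway list are named by lowest p, of which 1 is not reported here. The genes and lists were chosen with earlier results of these data known. Alternatives were other scaling, filters, a replicate block, GC offsets and libraries left out. The levels with the GC trend removed, and the correlations with that and OA2 and O1 left out, were added after seeing the data.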

Additional observations from a re-analysis of the deposited data

How the results depend on the processing

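None of the 10 genes passed under any of the 22 alternative settings in any of the 8 comparisons. With the number in the labels as a replicate block, 0 of 10 passed and edgeR called 1 gene over all in O vs A, as without it. Over all genes edgeR called 0 to 4 genes in O vs A under the alternatives, against 1, 0 to 2 in OA vs A and OAC vs A, against 1 each, and 0 to 1 for any difference and multipotent vs unipotent, against 0. DESeq2 called 420 in O vs A, 130 in OA vs A, 57 in OAC vs A, 291 for any difference, 101 in OAC vs O, 42 in OA vs O and 31 in multipotent vs unipotent. Same-numbered libraries deviated together with correlations of -0.58 to 0.76, over 0.1 in 11 of 18 cases. All 6 cases of number 3, the pools, were over 0.1 (0.29 to 0.76), while those of numbers 1 and 2 were mixed in sign, so the numbers were not taken as pairs. The lowest FDR of a member was that of Klf9 in O vs A, whose log2 fold change ranged from -2.14 to -1.36 and whose adjusted p ranged from 0.0682 (DESeq2) to 0.748 (without the pools). The number of correlated pairs was 1 in place of 0 without OA2 and O1, and 0 to 1 with single libraries left out. That pair was Per1 with Nr3c1 without O1 (r = -0.89, adjusted permutation p = 0.00045).

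The values whose sign turned had passed no adjusted threshold with all 14 libraries. Without OA2 and O1, O vs A was -0.24 for Per1 and -0.28 for Mt2, and r was -0.063 for Fkbp5 with Klf9, 0.028 for Per1 with Klf9 and 0.023 for Klf9 with Mt2. Without the pools, O vs A was 0.13 for Mt1. With GC offsets r was 0.29 for Per1 with Nr3c1, and with GC offsets and without OA2 and O1 it was -0.11 for Fkbp5 with Klf9 and -0.022 for Per1 with Mt1. With single libraries left out, O vs A ranged from -0.22 to 0.51 for Per1, -0.91 to 0.095 for Mt1 and -0.26 to 1.44 for Mt2, and r from -0.11 to 0.69 for Fkbp5 with Klf9. The causes were not tested. Zbtb16 had the lowest counts of the 10 genes in every library except O1, with 51 to 307 reads, so its values carry a large relative counting error. In O1, Klf9 had 57 reads and Zbtb16 83. The Klf9 ratio of 15.7 over the 14 libraries uses that value of 57 reads.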
